A study of Mus musculus with 20 samples.

Results

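Hippocampal mRNA of 34 genes of the oligodendrocyte lineage was examined in mice with and without miR-34a and with and without an amyloid transgene. The genes were taken by symbol from a table of 39056 genes, and all 34 were found and passed the filter on low counts that left 16107 genes for testing. They comprised 11 genes of myelin and membrane proteins, 4 enzymes of myelin lipids, 5 transcription factors, 2 genes of newly formed oligodendrocytes, 4 genes of oligodendrocyte precursor cells and 8 other genes that oligodendrocytes express. The first 2 classes together with Myrf and Nkx6-2 are called the 17 mature myelin genes, and they were set against the 4 precursor genes Pdgfra, Cspg4, Gpr17 and Vcan.

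Bulk RNA sequencing had been done on 1 hippocampus, the left, of each of 20 female mice on a C57BL/6 background, which entered behavioural tests at 12 months of age and were perfused after them. The 4 groups of 5 mice were miR34a+/+ Non-Tg (miR-34a WT Non-Tg), miR34a-/- Non-Tg (miR-34a KO Non-Tg), miR34a+/+ Tg-SwDI (miR-34a WT Tg-SwDI) and miR34a-/- Tg-SwDI (miR-34a KO Tg-SwDI). The miR-34a deletion was constitutive and reached every cell of the body. The Tg-SwDI transgene encodes human APP with the Swedish, Dutch and Iowa mutations under the Thy1 promoter, which is active in neurons, so that oligodendrocytes were not its intended site of expression. Mice of each group are listed below in the order of their numbers, which were 2, 3, 4, 6 and 7 for WT Non-Tg, 1, 2, 4, 7 and 8 for KO Non-Tg, 3, 4, 5, 6 and 7 for WT Tg-SwDI and 1, 2, 3, 5 and 8 for KO Tg-SwDI.

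Oligodendrocytes wrap axons in myelin, a stack of compacted membrane rich in galactolipids and in a small set of abundant proteins such as myelin basic protein. They arise from precursor cells that carry the PDGF receptor alpha and the proteoglycan encoded by Cspg4, that persist in the adult hippocampus, and that pass through a committed stage marked by Gpr17 and a newly formed stage marked by Enpp6 and Bcas1 before the factor Myrf switches on the myelin genes. In the hippocampus myelinated fibres are dense in the alveus and fimbria, next to the ventricle and its choroid plexus. In bulk tissue, fewer cells of a type and less RNA per cell cannot be told apart.

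MicroRNA-34a pairs with messages mainly through its seed, bases 2 to 8, and its sequence is shown because its gene is the one deleted. The mature strand is annotated by RefSeq at chr4:150068473-150068494 on the plus strand of GRCm38.p6, and capitals mark the seed.
mmu-miR-34a-5p: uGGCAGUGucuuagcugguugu
The complement of this seed, CACTGCC, was searched on the sense strand of the longest annotated 3′ UTR of each gene (GENCODE M21, mm10). It occurred in 5 of 34 members, or 14.7%, against 17.2% of the 14697 tested genes with an annotated 3′ UTR (2533 genes). No member held the 8mer form, in which an A follows, which 6.00% of those genes held. The matches in Cldn11, Padi2, Pdgfra and Ninj2 are shown with their flanks, the match in capitals, since Cldn11 and Padi2 are among the members that differed most between groups and Pdgfra is the defining precursor gene.
Cldn11, chr3:31163320-31163326, plus strand: ggctgctcCACTGCCcgccgagg
Padi2, chr4:140951878-140951884, plus strand: tcaacagtCACTGCCttcgagag
Padi2, chr4:140952252-140952258, plus strand: gactcagaCACTGCCtgtcccat
Pdgfra, chr5:75197926-75197932, plus strand: agctgtatCACTGCCtttgttta
Ninj2, chr6:120200256-120200262, plus strand: acactctgCACTGCCttcttttc
Gpr17 was the fifth member with a match. Such a match describes the letters of the UTR and says nothing of binding. Padi2 lies on the chromosome of the deleted miRNA gene, 9.16 Mb from it.

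The libraries held 19549622 to 21066868 counts each. Thy1, whose promoter cassette drives the transgene, stood at 685 to 769 CPM, a count rescaled to a common library depth, in Non-Tg mice, at 1905 to 2328 CPM in WT Tg-SwDI and at 2454 to 3318 CPM in KO Tg-SwDI mice. It thus separated the 2 transgene labels in all 20 mice, and the KO Tg-SwDI mice lay above the WT Tg-SwDI mice without overlap. Its part in the comparisons of KO with WT was not tested. The KO Tg-SwDI mouse 8 stood apart, with 14.6% of its counts from mitochondrial genes against 6.94 to 8.76% in the other 19 mice. Ttr, the defining gene of choroid plexus epithelium, stood at 29.8 to 3898 CPM and split the mice, with all 5 KO Non-Tg mice (31.4 to 277 CPM), WT Non-Tg mice 3 and 6, WT Tg-SwDI mouse 7 and KO Tg-SwDI mouse 2 under 1000 CPM and the rest over it. Calls among the members that rest on these mice are given with and without them. Tests of the further gene lists and of the markers of other cells are given from the fit of all 20 mice alone. How far those tests rest on these mice is not shown. The authors bred the KO and WT Tg-SwDI mice as littermates. Nothing in the sources used here gives the litter of each mouse or states that mice of a group came from separate litters. Litters were therefore not modelled, and the p-values weigh differences against the spread between these mice.

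Oligodendrocyte transcripts were abundant in all libraries. Per kilobase of exon, and averaged over the 5 WT Non-Tg mice, Mbp was the highest member at 370.2 CPM per kb, higher than 99.6% of tested genes, and Mobp followed at 148 CPM per kb. Qdpr, Cnp, Cldn11 and Mal came next at 88.7, 83.7, 82.1 and 79.8 CPM per kb, with ranges over mice that overlapped between each neighbouring pair. The precursor genes were lower on the same scale, Gpr17 at 6.88, Pdgfra at 5.70, Cspg4 at 2.21 and Vcan at 1.60 CPM per kb. Klk6 and Enpp6 were the lowest at 1.25 and 1.20 CPM per kb, and their ranges overlapped. Raw counts ran from 24 for Klk6 in 1 mouse to 77521 for Mbp in another. The biological coefficient of variation fitted by edgeR had a median of 8.77% over members, from 6.33% for Vcan to 18.3% for Klk6, beside 8.82% over all tested genes.

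**Figure D1:**
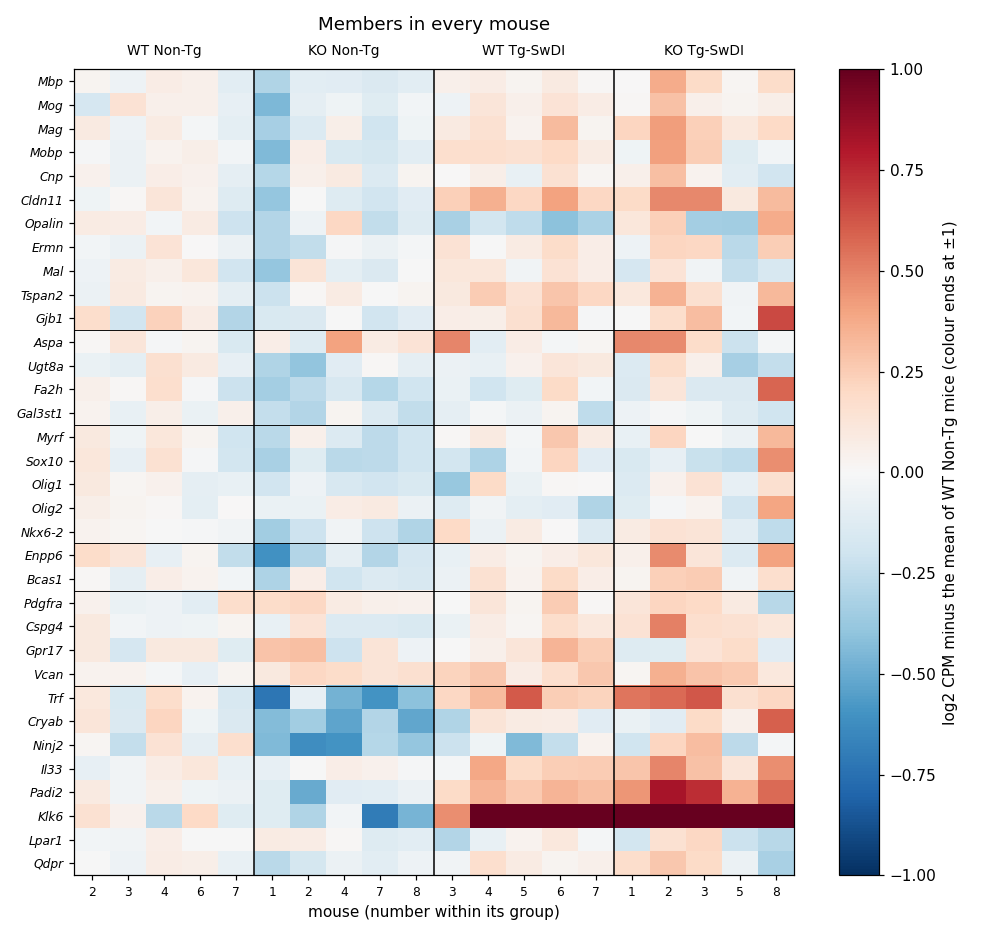
Each cell is the log2 CPM of 1 member (rows, in the order of their roles) in 1 mouse (columns, numbered within the 4 groups) minus the mean of the 5 WT Non-Tg mice, on a colour scale that ends at 1 in either direction. Klk6 goes past the end of the scale in most Tg-SwDI mice, KO Non-Tg mouse 1 is pale to deep blue for most mature myelin genes, and KO Tg-SwDI mouse 2 is red for most of them.

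The transgene was first compared with its absence in miR-34a KO mice. There, 18 of 34 members rose and none fell (adjusted p under 0.05 by edgeR's quasi-likelihood F test, corrected by the Benjamini-Hochberg method over all 16107 genes, as is every adjusted p given here), a share of 52.9% beside the 20.8% of all tested genes called in either direction and the 12.5% called higher. The median log2 fold change was 0.23 over the 34 members and 0.00 over all tested genes. The 18 were Mbp, Mog, Mag, Mobp, Cldn11, Tspan2, Gjb1, Fa2h, Myrf, Enpp6, Bcas1, Cspg4, Trf, Cryab, Ninj2, Il33, Padi2 and Klk6. In 11 of them the lowest KO Tg-SwDI mouse lay above the highest KO Non-Tg mouse, which 8.47% of all tested genes did. In the 10 KO mice the choroid plexus list moved as well: 10 of its 12 tested genes rose with the transgene, with a median log2 fold change of 3.18. With a choroid plexus score as a covariate 13 of the 18 kept the call, and with only the mice under 1000 CPM of Ttr, where KO Tg-SwDI is the single mouse 2 and is assumed to vary like the other groups, 15 members rose, 13 of them among the 18. Of all 16107 genes, the fit with the covariate called 1226, of which 1068 were higher. Without KO Tg-SwDI mouse 8, the mouse of high mitochondrial share, 16 rose, 14 of them among the 18. That fit called 3060 of 16224 genes, 1904 of them higher. Fitted on the 10 KO mice alone, 12 rose, all among the 18, where 2435 of 15607 genes were called, 1655 of them higher. With the trend of each library's centred log2 CPM on GC content and exon length removed, 10 rose, all among the 18. Of 4662 genes called in all, 1487 were then higher, against 2013 of 3351 before. The median log2 fold change over all tested genes was -0.08 in that fit.

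In miR-34a WT mice, 3 of 34 members rose with the transgene, namely Cldn11, Padi2 and Klk6, and none fell. This was 8.82% of the members, beside 4.41% of all tested genes called in either direction and 3.94% called higher. All 3 are among the 18 of the KO comparison and make up 16.7% of them. The median log2 fold change over the 34 members was 0.07, beside 0.00 over all tested genes. The number of members whose 5 WT Tg-SwDI mice all lay above the 5 WT Non-Tg mice was 7, beside 5.10% of all tested genes. Fitted on the 10 WT mice alone, 7 members rose and Opalin fell, and with the GC and length trend removed Klk6 alone rose. Those fits called 946 of 15661 and 737 of 16107 genes. No member passed in the mice under 1000 CPM of Ttr, which hold 2 WT Non-Tg mice and the single WT Tg-SwDI mouse 7, assumed to vary like the other groups, and Klk6 alone rose in those over it. A test of the difference between the KO and the WT response is given further on, and the larger count in KO mice does not by itself show one.

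**Figure D2:**
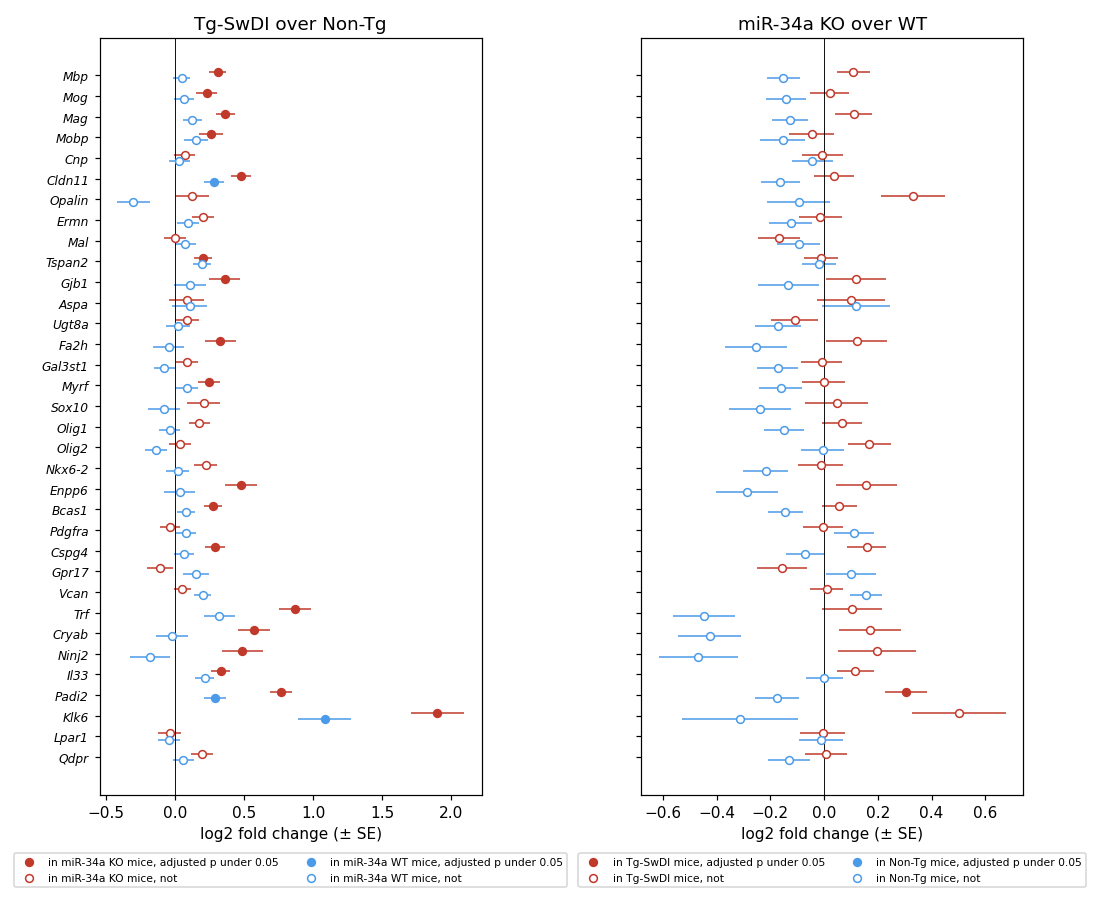
Log2 fold changes with SE (horizontal axes) of the 34 members (vertical axis), on the left for Tg-SwDI over Non-Tg mice in miR-34a KO (red) and WT (blue) mice and on the right for miR-34a KO over WT in Tg-SwDI (red) and Non-Tg (blue) mice. Filled points have an adjusted p under 0.05, and they number 18 and 3 on the left and 1 and 0 on the right.

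The genes of compact myelin proteins were led by Mbp, whose product holds the inner faces of the myelin membrane together. WT mice without the transgene gave 3195, 3028, 3305, 3239 and 2908 CPM, and those with it 3236, 3303, 3189.6, 3333 and 3149 CPM. Without miR-34a, Mbp stood at 2543, 2914, 2900.3, 2835 and 2917 CPM in Non-Tg and at 3139, 4045, 3575, 3179 and 3548 CPM in Tg-SwDI mice. The 2 WT groups overlapped, whereas every KO Tg-SwDI mouse lay above every KO Non-Tg mouse, mouse 2 being the highest of all 20 and KO Non-Tg mouse 1 the lowest. The log2 fold change of Mbp with the transgene was 0.31 ± 0.06 (SE), adjusted p = 0.000582, in KO mice and 0.05 ± 0.06 (SE), adjusted p = 0.786, in WT mice.

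Mag, the myelin-associated glycoprotein that faces the axon, had the same order of groups. Mag read 180.1, 163, 179, 167 and 158 CPM in the WT Non-Tg group, and 180.3, 188, 173, 211 and 172 CPM in its Tg-SwDI counterpart. The KO values of Mag were 135, 154, 176, 147 and 164 CPM lacking the transgene and 196, 226, 199, 182 and 194 CPM carrying it. The KO groups did not overlap and the WT groups did. Mag changed with the transgene by 0.36 ± 0.07 (SE), adjusted p = 0.000361, in KO mice and had a log2 fold change of 0.13 ± 0.07 (SE), adjusted p = 0.401, in WT mice.

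Cldn11 encodes the claudin of the tight junctions between myelin layers, and it was the structural gene with the largest fold change. The levels of Cldn11 were 149, 155, 167, 157 and 140.1 CPM in WT mice lacking the transgene, and 181, 196, 177, 202 and 177 CPM in those carrying it. For Cldn11, KO Non-Tg mice gave 117, 153, 139.8, 134 and 142 CPM and KO Tg-SwDI mice 175, 213, 214, 164 and 190.4 CPM. With the transgene all mice lay above all mice without it in both genotypes. Its fitted log2 fold change was 0.48 ± 0.07 (SE), adjusted p = 2.85e-05, in KO mice and 0.28 ± 0.07 (SE), adjusted p = 0.0221, in WT mice. The call in WT mice was lost without WT Non-Tg mouse 7, WT Tg-SwDI mouse 4 or WT Tg-SwDI mouse 6, with the GC and length trend removed and within either Ttr class.

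Tspan2 encodes a tetraspanin of the myelin sheath. Tspan2 stood at 134, 148, 142, 143 and 131 CPM in WT Non-Tg mice and at 149, 166, 154, 169 and 161 CPM in WT Tg-SwDI mice. KO mice had Tspan2 levels of 119.8, 140.4, 147, 139 and 142 CPM when Non-Tg and of 150.3, 177, 156, 136 and 174 CPM when Tg-SwDI. Here the WT groups were apart and the KO groups overlapped, because KO Tg-SwDI mouse 5 stood below 4 KO Non-Tg mice. Both fitted log2 fold changes were of one size, 0.21 ± 0.06 (SE), adjusted p = 0.0257, in KO mice and 0.20 ± 0.06 (SE), adjusted p = 0.0908, in WT mice. The KO call was lost without KO Non-Tg mouse 1 or KO Tg-SwDI mouse 2 or 8. It was also lost with library size scaling alone, with the GC and length trend removed and in the 10 KO mice alone.

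Mog encodes a glycoprotein of the outermost myelin layer. WT mice without the transgene gave 45.4, 56.5, 52.8, 52.8 and 48.4 CPM, and those with it 49.3, 55.6, 52.9, 56.2 and 53.8 CPM. Without miR-34a, Mog stood at 37.4, 47.8, 49.7, 46.8 and 50.2 CPM in Non-Tg and at 51.6, 62.5, 52.8, 51.9 and 53.2 CPM in Tg-SwDI mice. In KO mice the groups were apart, with KO Non-Tg mouse 1 far below its group and KO Tg-SwDI mouse 2 far above its own. The fitted log2 difference was 0.23 ± 0.07 (SE), adjusted p = 0.0276, in KO and 0.07 ± 0.07 (SE), adjusted p = 0.751, in WT mice. The KO call was lost without either of these mice, with library size scaling alone, with the GC and length trend removed, in the 10 KO mice alone and in the mice of low Ttr.

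Of the other myelin and membrane genes, Mobp and the gap junction gene Gjb1 rose in KO mice, with log2 fold changes of 0.26 ± 0.08 (SE) and 0.36 ± 0.11 (adjusted p = 0.0301 and 0.0254), and neither passed in WT mice. Both calls were lost with the choroid plexus score as a covariate, with the GC and length trend removed and in the mice of low Ttr. Mobp also lost the call in 5 of the 20 fits without 1 mouse, those without KO Non-Tg mouse 1, 4 or 7 or KO Tg-SwDI mouse 2 or 3, and Gjb1 without KO Non-Tg mouse 7 or KO Tg-SwDI mouse 3 or 8. Cnp, a cyclic nucleotide phosphodiesterase of the inner sheath, Opalin, Ermn and Mal did not pass in either genotype. Their log2 fold changes in KO mice were 0.07 ± 0.08, 0.13 ± 0.12, 0.20 ± 0.08 and 0.00 ± 0.08. Opalin, a glycoprotein of the paranodal loops, had a value of -0.30 ± 0.12 in WT mice, the lowest of all members there, at an adjusted p of 0.209.

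The enzymes of myelin lipid synthesis moved less. Fa2h, which hydroxylates the fatty acids of galactolipids, rose in KO mice by 0.33 ± 0.11 (SE), adjusted p = 0.0468. KO Tg-SwDI mouse 8 read 69.9 CPM against 42.1 to 50.7 CPM in the other 4 of its group. The call of Fa2h was lost in 13 of the 20 fits without 1 mouse, among them those without any one of the 5 KO Non-Tg mice and without KO Tg-SwDI mouse 2 or 8, and it was lost with the choroid plexus score as a covariate and with the GC and length trend removed. Ugt8a, which makes galactocerebroside, Gal3st1, which turns it into sulfatide, and Aspa, which frees acetate from N-acetylaspartate, had log2 fold changes of 0.09 ± 0.09, 0.09 ± 0.08 and 0.09 ± 0.13 in KO mice and of 0.02 ± 0.09, -0.08 ± 0.08 and 0.11 ± 0.13 in WT mice, none past the test.

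Among the 5 transcription factors, Myrf, which switches on the myelin genes in maturing oligodendrocytes, was the single one that rose, in KO mice. That is 20% of them, close to the 20.8% of all tested genes called in either direction, with 12.5% called higher. Myrf read 81.8, 74.0, 82.3, 77.8 and 66.3 CPM in the WT Non-Tg group, and 76.9, 81.0, 75.3, 91.7 and 80.7 CPM in its Tg-SwDI counterpart. The KO values of Myrf were 63.2, 79.1, 69.3, 63.6 and 66.5 CPM lacking the transgene and 72.5, 88.3, 76.2, 73.1 and 95.3 CPM carrying it. Both pairs of groups overlapped. The log2 change was 0.25 ± 0.08 (SE), adjusted p = 0.0305, in KO and 0.09 ± 0.08 (SE), adjusted p = 0.689, in WT mice. The KO call was lost without KO Tg-SwDI mouse 2 or 8 and without KO Non-Tg mouse 1, 4, 7 or 8, with the choroid plexus score as a covariate, with the GC and length trend removed and in the 10 KO mice alone.

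Sox10 acts with Myrf and marks the whole lineage. The levels of Sox10 were 65.0, 56.8, 66.8, 59.6 and 52.8 CPM in WT mice lacking the transgene, and 52.8, 48.5, 59.0, 69.6 and 55.5 CPM in those carrying it. For Sox10, KO Non-Tg mice gave 48.0, 55.3, 49.7, 50.1 and 52.2 CPM and KO Tg-SwDI mice 54.1, 56.7, 51.5, 50.2 and 82.6 CPM. KO Tg-SwDI mouse 8, of high mitochondrial share, stood far above the other 4 mice of its group, which overlapped with KO Non-Tg. Sox10 did not pass, with log2 fold changes of 0.21 ± 0.12 (SE), adjusted p = 0.226, in KO and -0.08 ± 0.12 (SE), adjusted p = 0.829, in WT mice.

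Olig2 is needed to specify the lineage and is expressed in precursors and mature cells alike. Olig2 stood at 34.046, 33.4, 33.0, 30.5 and 32.9 CPM in WT Non-Tg mice and at 30.0, 32.0, 30.6, 30.2 and 26.6 CPM in WT Tg-SwDI mice. KO mice had Olig2 levels of 31.2, 31.3, 34.4, 34.9 and 31.4 CPM when Non-Tg and of 30.2, 32.5, 33.6, 28.7 and 43.1 CPM when Tg-SwDI. The groups overlapped in both genotypes, and mouse 8 was again the highest of all 20. The log2 fold change of Olig2 was 0.04 ± 0.08 (SE), adjusted p = 0.764, in KO and -0.13 ± 0.08 (SE), adjusted p = 0.461, in WT mice. Olig1, its neighbour and relative, and Nkx6-2, a homeobox factor of mature oligodendrocytes, had values of 0.18 ± 0.07 and 0.22 ± 0.08 in KO mice (adjusted p = 0.0946 and 0.0597).

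Both genes of newly formed oligodendrocytes rose with the transgene in KO mice. Enpp6, a choline-specific phosphodiesterase, was scarce. WT mice without the transgene gave 8.70, 8.33, 7.23, 7.80 and 6.44 CPM, and those with it 7.28, 8.04, 7.81, 8.02 and 8.28 CPM. Without miR-34a, Enpp6 stood at 5.02, 6.26, 7.19, 6.24 and 6.82 CPM in Non-Tg and at 7.95, 10.6, 8.31, 6.97 and 10.1 CPM in Tg-SwDI mice. Among KO mice only KO Tg-SwDI mouse 5 and KO Non-Tg mouse 4 stopped the groups from separating. The fitted log2 fold change of Enpp6 was 0.48 ± 0.11 (SE), adjusted p = 0.00372, in KO and 0.03 ± 0.11 (SE), adjusted p = 0.932, in WT mice.

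Bcas1 marks oligodendrocytes that begin to myelinate. Bcas1 read 220.4, 205, 229, 224 and 215 CPM in the WT Non-Tg group, and 209.9, 243, 224, 249 and 228 CPM in its Tg-SwDI counterpart. The KO values of Bcas1 were 176, 229, 190.0, 198 and 196 CPM lacking the transgene and 223, 258, 261, 213 and 245 CPM carrying it. The KO groups overlapped through KO Non-Tg mouse 2. Bcas1 had a log2 fold change of 0.28 ± 0.07 (SE), adjusted p = 0.00326, in KO and 0.08 ± 0.07 (SE), adjusted p = 0.648, in WT mice. The KO call was lost with the GC and length trend removed and in the mice of low Ttr.

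The precursor genes did not move as a block. Pdgfra, the receptor through which PDGF keeps precursors dividing, overlapped between all groups. The levels of Pdgfra were 58.8, 54.6, 55.1, 52.9 and 64.2 CPM in WT mice lacking the transgene, and 56.7, 62.0, 58.0, 68.1 and 57.4 CPM in those carrying it. For Pdgfra, KO Non-Tg mice gave 64.5, 65.7, 60.3, 59.1 and 58.8 CPM and KO Tg-SwDI mice 62.0, 65.9, 65.3, 60.6 and 47.1 CPM. KO Tg-SwDI mouse 8 was the lowest of all 20 mice. Its log2 fold change with the transgene was -0.03 ± 0.07 (SE), adjusted p = 0.783, in KO and 0.08 ± 0.07 (SE), adjusted p = 0.683, in WT mice.

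Cspg4, the proteoglycan of precursors and also of pericytes, was the single precursor gene that rose, in KO mice. Cspg4 stood at 28.2, 25.8, 25.5, 25.5 and 26.8 CPM in WT Non-Tg mice and at 25.2, 27.7, 26.7, 29.8 and 28.4 CPM in WT Tg-SwDI mice. KO mice had Cspg4 levels of 24.971, 29.0, 23.984, 23.9 and 23.7 CPM when Non-Tg and of 29.1, 37.3, 29.5, 29.3 and 28.5 CPM when Tg-SwDI. KO Tg-SwDI mouse 2 was far above all others, and the KO groups overlapped through KO Non-Tg mouse 2 and KO Tg-SwDI mouse 8. The fitted log2 difference of Cspg4 was 0.29 ± 0.07 (SE), adjusted p = 0.0049, in KO and 0.06 ± 0.07 (SE), adjusted p = 0.756, in WT mice, and the KO call was kept without either mouse. Of 7 mural cell genes, 2 (28.6%) also rose in KO mice, beside 20.8% of all tested genes called and 12.5% called higher. The 7 genes had summed levels of 224 to 294 CPM in KO Non-Tg and 267 to 302 CPM in KO Tg-SwDI mice. Their part in the Cspg4 value was not tested.

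Gpr17, a receptor of committed precursors, was the most variable precursor gene. WT mice without the transgene gave 38.0, 31.7, 38.0, 38.2 and 32.7 CPM, and those with it 35.4, 36.8, 38.7, 45.2 and 42.3 CPM. Without miR-34a, Gpr17 stood at 43.4, 43.9, 30.9, 39.0 and 34.4 CPM in Non-Tg and at 32.5, 32.8, 39.2, 40.5 and 33.0 CPM in Tg-SwDI mice. All groups overlapped. The log2 change was -0.11 ± 0.09 (SE), adjusted p = 0.469, in KO and 0.15 ± 0.09 (SE), adjusted p = 0.49, in WT mice.

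Vcan encodes versican, a matrix proteoglycan that precursors secrete. Vcan read 23.7, 23.7, 22.8, 21.8 and 23.5 CPM in the WT Non-Tg group, and 26.9, 27.8, 24.3, 25.9 and 27.9 CPM in its Tg-SwDI counterpart. The KO values of Vcan were 24.7, 26.6, 26.3, 25.2 and 25.8 CPM lacking the transgene and 23.4, 29.6, 28.2, 27.6 and 24.8 CPM carrying it. The WT Tg-SwDI mice all lay above the WT Non-Tg mice, while the KO groups overlapped. Vcan had a log2 fold change of 0.05 ± 0.06 (SE), adjusted p = 0.574, in KO and 0.20 ± 0.06 (SE), adjusted p = 0.0602, in WT mice. Averaged over both genotypes it rose by 0.13 ± 0.04 (SE), adjusted p = 0.041. That call was lost in 12 of the 20 fits without 1 mouse, with the choroid plexus score as a covariate, with library size scaling alone and with no filter on low counts.

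**Figure D3:**
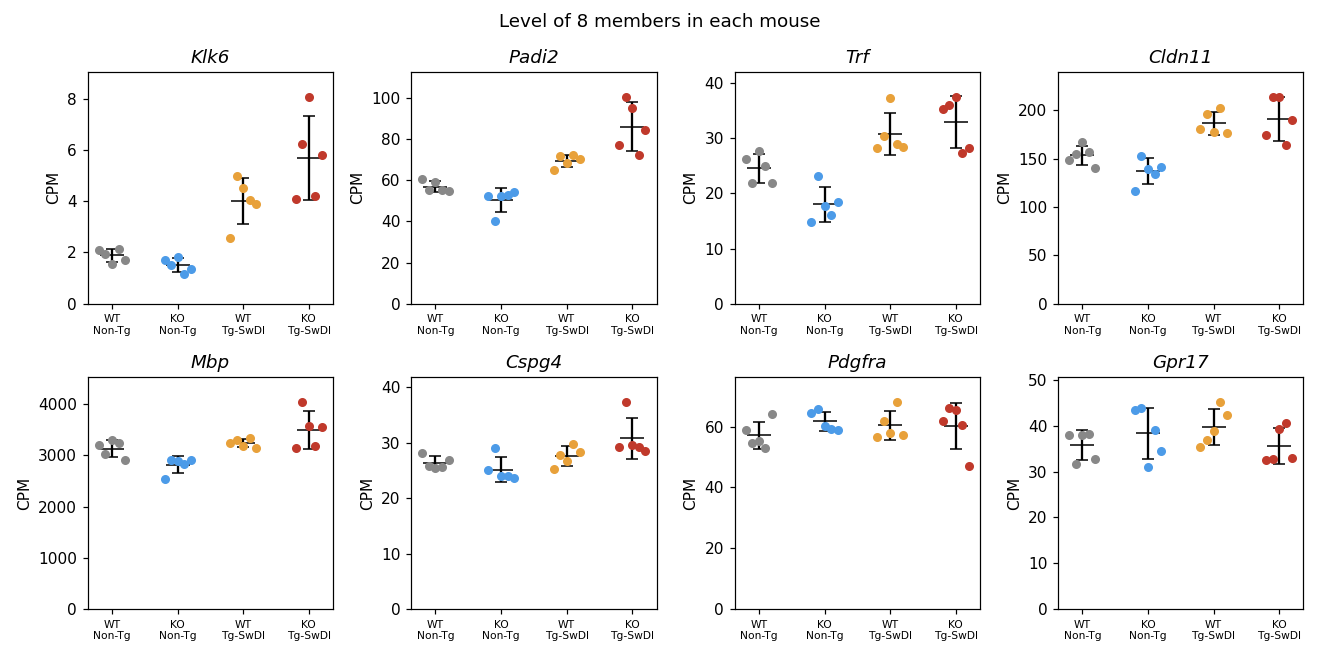
CPM (vertical axes, from 0) of 8 members in each of the 5 mice of the 4 groups (horizontal axes), with the mean and SD of each group as black bars. Klk6 and Padi2 are higher in all Tg-SwDI than in all Non-Tg mice, and Pdgfra and Gpr17 overlap in all groups.

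The 8 other oligodendrocyte genes held the largest changes. Klk6 encodes a secreted serine protease of the kallikrein family that oligodendrocytes express. The levels of Klk6 were 2.08, 1.93, 1.55, 2.15 and 1.72 CPM in WT mice lacking the transgene, and 2.58, 4.97, 4.52, 4.06 and 3.87 CPM in those carrying it. For Klk6, KO Non-Tg mice gave 1.72, 1.52, 1.83, 1.15 and 1.35 CPM and KO Tg-SwDI mice 4.07, 6.21, 8.07, 4.20 and 5.78 CPM. Every Tg-SwDI mouse lay above every Non-Tg mouse, and the Tg-SwDI mice spread the most. Klk6 was 3.73-fold higher with the transgene in KO mice (log2 1.90 ± 0.19 (SE), adjusted p = 3.62e-08) and 2.12-fold higher in WT mice (log2 1.08 ± 0.19 (SE), adjusted p = 0.000423). The WT call was lost in the mice of low Ttr (adjusted p = 0.103), 1 of which was WT Tg-SwDI. At these low counts the values are the least precise of the 34.

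Padi2 encodes a peptidylarginine deiminase that converts arginines of myelin basic protein and other proteins to citrulline. Padi2 stood at 60.4, 55.4, 58.8, 55.2 and 54.5 CPM in WT Non-Tg mice and at 65.0, 71.9, 68.1, 71.9 and 70.0 CPM in WT Tg-SwDI mice. KO mice had Padi2 levels of 52.2, 40.0, 52.4, 52.7 and 54.4 CPM when Non-Tg and of 76.9, 100.38, 95.0, 72.3 and 84.2 CPM when Tg-SwDI. All Tg-SwDI mice again lay above all Non-Tg mice. The log2 fold change with the transgene was 0.77 ± 0.08 (SE), adjusted p = 7.93e-08, in KO and 0.29 ± 0.08 (SE), adjusted p = 0.0369, in WT mice. The WT call was lost without WT Non-Tg mouse 3, 4, 6 or 7, without WT Tg-SwDI mouse 4, 5, 6 or 7, with the replicate block, with the GC and length trend removed and within either Ttr class, the lower of which holds 1 WT Tg-SwDI mouse.

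Trf encodes transferrin, the iron carrier, which oligodendrocytes make in the brain along with choroid plexus epithelium. WT mice without the transgene gave 26.3, 22.0, 27.6, 24.988 and 21.9 CPM, and those with it 28.2, 30.5, 37.3, 29.0 and 28.5 CPM. Without miR-34a, Trf stood at 14.8, 23.1, 17.7, 16.1 and 18.4 CPM in Non-Tg and at 35.4, 36.1, 37.5, 27.3 and 28.2 CPM in Tg-SwDI mice. The Tg-SwDI mice of each genotype lay above its Non-Tg mice. Trf changed by 0.87 ± 0.12 (SE), adjusted p = 6.67e-06, in KO mice and had a log2 fold change of 0.32 ± 0.11 (SE), adjusted p = 0.135, in WT mice. With the choroid plexus score as covariate and within the mice under 1000 CPM of Ttr, Trf kept the call in KO mice.

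Cryab encodes a small heat shock protein of oligodendrocytes and astrocytes. Cryab read 112, 93.4, 119, 100.15 and 93.1 CPM in the WT Non-Tg group, and 83.8, 113, 109, 109 and 95.2 CPM in its Tg-SwDI counterpart. The KO values of Cryab were 76.5, 81.2, 71.7, 84.4 and 72.1 CPM lacking the transgene and 98.6, 95.6, 118, 107 and 156 CPM carrying it. The WT groups overlapped, while the KO Non-Tg mice lay below all mice of WT Non-Tg and of KO Tg-SwDI. Its fitted log2 fold change with the transgene was 0.57 ± 0.12 (SE), adjusted p = 0.00155, in KO and -0.02 ± 0.12 (SE), adjusted p = 0.956, in WT mice.

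Il33 encodes a nuclear cytokine of oligodendrocytes and astrocytes. The levels of Il33 were 72.4, 74.9, 80.9, 82.9 and 73.0 CPM in WT mice lacking the transgene, and 75.5, 100.05, 87.8, 91.2 and 91.5 CPM in those carrying it. For Il33, KO Non-Tg mice gave 72.4, 76.6, 80.3, 78.9 and 75.9 CPM and KO Tg-SwDI mice 92.7, 108, 93.9, 83.6 and 106 CPM. The KO groups were apart, and in WT mice only Tg-SwDI mouse 3 fell into the Non-Tg range. Il33 changed by 0.33 ± 0.07 (SE), adjusted p = 0.000941, in KO mice and had a log2 fold change of 0.22 ± 0.07 (SE), adjusted p = 0.0784, in WT mice. Of 7 astrocyte genes, 4 rose in KO and 5 in WT mice, and their part in the values of Il33 and Cryab was not tested.

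Ninj2, an adhesion protein, rose in KO mice by 0.49 ± 0.15 (SE), adjusted p = 0.0208, from a range of 1.52 to 1.92 to one of 1.95 to 2.90 CPM. The call was lost with no filter on low counts, with the choroid plexus score as a covariate, with the GC and length trend removed, in the 10 KO mice alone, in the mice of low Ttr and without KO Non-Tg mouse 4 or KO Tg-SwDI mouse 3. Lpar1, a receptor for lysophosphatidic acid, had values of -0.04 ± 0.08 in KO and -0.04 ± 0.08 in WT mice, and Qdpr, which regenerates tetrahydrobiopterin, of 0.20 ± 0.08 and 0.06 ± 0.08, none past the test.

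The loss of miR-34a was compared next. In Non-Tg mice no member passed in edgeR's quasi-likelihood test, as did none of all tested genes (0%), while 12 members had an unadjusted p under 0.05, and DESeq2 called none either. The fitted log2 differences of KO over WT were below 0 in 29 of 34 members, with a median of -0.14 beside 0.00 over all tested genes. They were lowest for Ninj2, Trf and Cryab, at -0.47 ± 0.15, -0.45 ± 0.12 and -0.43 ± 0.12 (SE), and the adjusted p of each of these was 0.508. The 5 KO mice did not overlap the 5 WT mice in 5 members, below them for Nkx6-2, Cryab, Ninj2 and Padi2 and above them for Vcan, beside 2.23% of all tested genes. Mbp averaged 2822 ± 159.6 CPM (SD, n = 5) in KO and 3135 ± 163 CPM in WT Non-Tg mice. The KO Non-Tg group had the lowest mean of the 4 groups in 26 members and in 15 of the 17 mature myelin genes, and the KO Tg-SwDI group the highest in 21 members. All 5 KO Non-Tg mice and 2 of the 5 WT Non-Tg mice, numbers 3 and 6, had low Ttr. Among these 7 mice the median over the mature myelin genes was -0.15, beside -0.14 with all mice.

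In Tg-SwDI mice 1 member of 34, or 2.94%, rose in KO over WT, Padi2, beside 1.99% of all tested genes called in either direction and 1.48% called higher. Its log2 fold change was 0.31 ± 0.08 (SE), adjusted p = 0.0449, and the 5 KO mice lay above the 5 WT mice, which 2.04% of all tested genes did. The call was lost in 15 of the 20 fits that left out 1 mouse, among them those without KO Tg-SwDI mice 2, 3 or 8, and in the fits with library size scaling alone, with the replicate block, with the GC trend removed, with the 10 Tg-SwDI mice alone and within either Ttr class. Klk6 had a log2 fold change of 0.50 ± 0.17 (SE), adjusted p = 0.119, and Opalin of 0.33 ± 0.12 (SE), adjusted p = 0.137. The median over members was 0.05, over the 17 mature myelin genes 0.00 and over the 4 precursor genes 0.00. Of the 5 members with a miR-34a seed match, 3 had a value above 0 in KO over WT in Tg-SwDI mice and 2 in Non-Tg mice. The medians of those 5 were 0.04 and -0.16, beside 0.06 and -0.14 for the 29 without a match.

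The difference between the transgene response of KO and of WT mice was tested as an interaction. It was above 0 in 29 of 34 members, with a median of 0.19 beside 0.01 over all tested genes. Padi2 alone passed, at 0.48 ± 0.11 (SE), adjusted p = 0.0476, which is 2.94% of the members beside 0.608% of all tested genes called in either direction and 0.428% called higher. That call was lost in 13 of the 20 fits without 1 mouse. It was also lost with library size scaling alone (adjusted p = 0.071), the replicate block (0.144), a choroid plexus score as covariate (0.0593), the GC trend removed (0.211) and the mice of low Ttr (0.486), which hold 1 Tg-SwDI mouse of each genotype. Cryab, Trf, Ninj2, Klk6 and Mbp had interaction values of 0.60 ± 0.16, 0.55 ± 0.16, 0.67 ± 0.21, 0.82 ± 0.28 and 0.26 ± 0.09 (SE), with adjusted p of 0.0883, 0.103, 0.11, 0.135 and 0.128. DESeq2 called Cryab and Trf in addition to Padi2. For the 15 members that rose in KO mice and did not pass in WT mice, a difference between the genotypes was therefore not shown by edgeR. Averaged over both genotypes, 17 members rose with the transgene and none fell, which is 50.0% beside 17.2% of all tested genes called in either direction and 11.3% called higher. With only the 9 mice of low Ttr, 11 did. Averaged over both transgene states, KO over WT called none of the members in edgeR, where 3 had an unadjusted p under 0.05, nor in DESeq2, beside 0.0807% of all tested genes.

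Mature myelin genes and precursor genes were then set side by side. In KO mice 9 of the 17 mature genes rose with the transgene and 1 of the 4 precursor genes did, or 52.9% and 25%, beside 20.8% of all tested genes called in either direction and 12.5% called higher. The median log2 fold changes were 0.22 for the mature and 0.01 for the precursor genes. In WT mice 1 of 17 (5.88%) and 0 of 4 rose, beside 4.41% of all tested genes, with medians of 0.08 and 0.12. KO over WT in Non-Tg mice, the medians were -0.14 for the mature and 0.11 for the precursor genes, with no call in either class. Each gene was then centred on its mean over the 20 mice. The mean log2 CPM of the mature genes was 0.00 ± 0.07 (SD, n = 5) in WT and -0.13 ± 0.10 in KO mice without the transgene. With it, the mature mean was 0.05 ± 0.05 in WT and 0.08 ± 0.14 in KO mice. The precursor mean was -0.08 ± 0.05, -0.01 ± 0.10, 0.04 ± 0.08 and 0.04 ± 0.12 in the same order. The groups overlapped in both measures. No test was run on these means, since the genes were chosen with results of these data known.

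**Figure D4:**
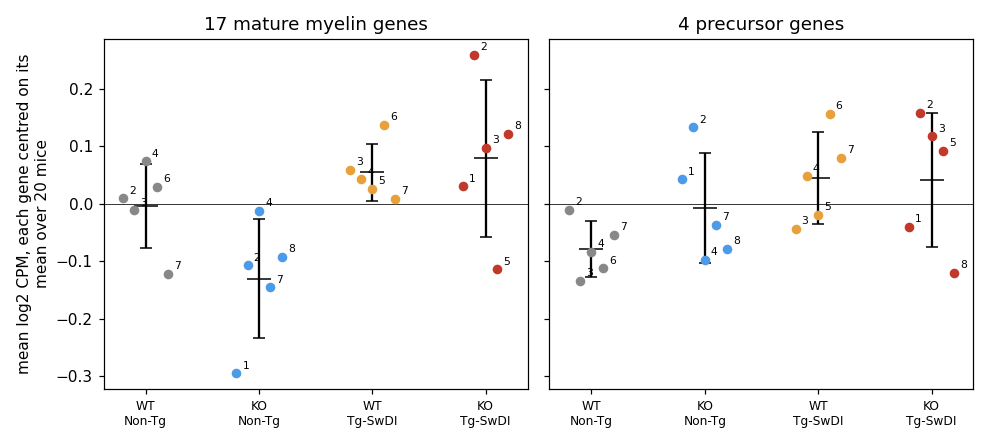
Mean log2 CPM (vertical axis) over the 17 mature myelin genes (left) and the 4 precursor genes (right), each gene centred on its mean over 20 mice, for each mouse (points, with its number) of the 4 groups (horizontal axis), with group mean and SD as bars. KO Non-Tg mouse 1 is the lowest and KO Tg-SwDI mouse 2 the highest in the left panel.

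Single mice held many of the extremes. KO Non-Tg mouse 1 was the lowest of all 20 mice in 17 members, among them Mbp, Mog, Mag, Mobp, Cnp, Myrf and Sox10, while its precursor mean was 0.04, within the range of the others. KO Tg-SwDI mouse 2 was the highest in 13, including the same 5 structural genes Mbp, Mog, Mag, Mobp and Cnp but also Cspg4 and Vcan. KO Tg-SwDI mouse 8 was the highest in 8 members, Opalin, Ermn, Gjb1, Fa2h, Myrf, Sox10, Olig2 and Cryab, and the lowest in Pdgfra and Qdpr. Without KO Non-Tg mouse 1, or without KO Tg-SwDI mouse 2, 13 members rose with the transgene in KO mice in place of 18, and in both fits the lost members were Mog, Mobp, Tspan2, Fa2h and Myrf. In all 20 fits without 1 mouse, 11 of the 18 kept the call, namely Mbp, Mag, Cldn11, Enpp6, Bcas1, Cspg4, Trf, Cryab, Il33, Padi2 and Klk6.

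**Figure D5:**
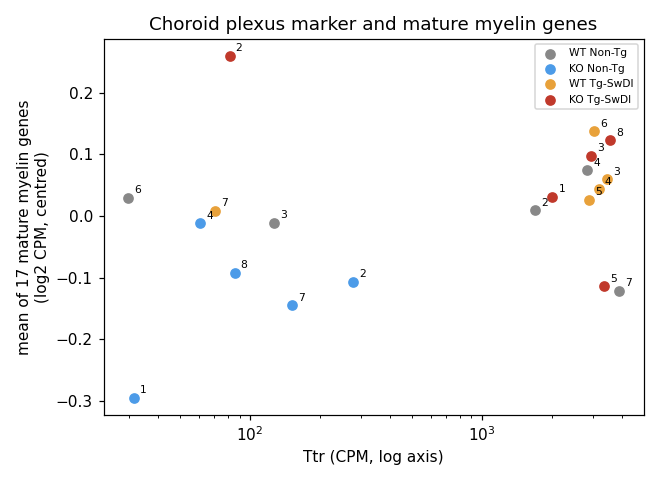
The mean of the 17 mature myelin genes (vertical axis, centred log2 CPM) against Ttr (horizontal log axis, CPM) in each of the 20 mice, coloured by group and numbered. The 5 KO Non-Tg mice and KO Tg-SwDI mouse 2 lie on the low side of the Ttr gap, where KO Non-Tg mouse 1 has the lowest and KO Tg-SwDI mouse 2 the highest vertical value of all 20 mice.

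Further genes of the lineage were counted from separate lists, which, like the 34, were chosen with earlier results of these data known. Of 22 further myelin genes, 7 rose with the transgene in KO mice and none fell, or 31.8%, with a median of 0.21, beside 20.8% of all tested genes called in either direction and 12.5% called higher. In WT mice 1 of 22 rose, or 4.55%, a share close to the 4.41% of all tested genes. Gsn, an actin-severing protein of oligodendrocytes, rose in both, by 0.67 ± 0.07 (SE), adjusted p = 1.15e-07, in KO and by 0.37 ± 0.07 (SE), adjusted p = 0.00129, in WT mice. Sirt2, a deacetylase of the myelin sheath, Plekhb1 and Ppp1r14a rose in KO mice by 0.32 ± 0.06, 0.29 ± 0.05 and 0.61 ± 0.12 (SE; adjusted p = 0.00016, 0.000321 and 0.00042). KO over WT in Tg-SwDI mice, Pllp, a myelin proteolipid, rose by 0.31 ± 0.08 (SE), adjusted p = 0.0418, and Anln, the septin scaffold anillin of the sheath, fell, with a log2 fold change of -0.34 ± 0.08 (SE), adjusted p = 0.0215.

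Of 9 further precursor genes none passed in KO mice. In WT mice, where 4.41% of all tested genes were called, 1 of the 9 (11.1%) rose. This was Ptprz1, a receptor phosphatase of precursors and astrocytes, by 0.24 ± 0.05 (SE), adjusted p = 0.00704. Of 16 signals and regulators of the lineage, 4 rose with the transgene in each genotype, Igf1, Fgf2, Id4 and Itpr2. This was 25% in each, beside 20.8% of all tested genes called in KO mice (12.5% higher) and 4.41% in WT mice. Igf1, a growth factor that promotes myelination and is also made by activated microglia, rose by 1.02 ± 0.10 (SE), adjusted p = 1.52e-08, in KO and by 0.82 ± 0.10 (SE), adjusted p = 2.15e-06, in WT mice. Fgf2 rose by 0.55 ± 0.09 and 0.68 ± 0.09 (SE; adjusted p = 7.65e-05 and 8.77e-06), and Id4 and Itpr2 rose by 0.26 ± 0.07 and 0.28 ± 0.07 in KO and by 0.28 ± 0.07 and 0.29 ± 0.07 in WT mice (adjusted p = 0.00825, 0.00605, 0.0152 and 0.0109).

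Genes known from disease-associated oligodendrocytes, which astrocytes and microglia express as well, had larger log2 fold changes with the transgene than every member but Klk6. All 5 rose in KO and 3 (60%) in WT mice, beside 20.8% and 4.41% of all tested genes called. Serpina3n, a protease inhibitor, rose by 2.26 ± 0.13 (SE), adjusted p = 1.96e-10, in KO and by 1.46 ± 0.13 (SE), adjusted p = 2.18e-07, in WT mice, and C4b, a complement component, by 2.01 ± 0.16 and 1.55 ± 0.16 (adjusted p = 5.05e-08 and 3.21e-06). B2m, the invariant chain of MHC class I, rose by 1.97 ± 0.14 (SE), adjusted p = 5.87e-09, in KO and by 0.92 ± 0.14 (SE), adjusted p = 0.000218, in WT mice, and among Tg-SwDI mice it was also higher without than with miR-34a, by 0.76 ± 0.14 (SE), adjusted p = 0.0106. H2-D1 rose in KO mice by 1.64 ± 0.24 (SE), adjusted p = 8.38e-05. For KO over WT in Tg-SwDI mice, 2 of the 5 genes were called, both higher, or 40% beside 1.99% of all tested genes. B2m was 1 of these 2, and the lowest adjusted p of the list was 0.00654. All 5 genes had values above 0 there, each with an unadjusted p under 0.05 in edgeR's test.

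Markers of other cells were counted beside these results. All 9 microglial genes rose in both genotypes, with summed levels of 217 to 278 CPM over the Non-Tg and of 627 to 979 CPM over the Tg-SwDI mice. The 7 astrocyte genes summed to 4754 to 5305 CPM in Non-Tg and to 6026 to 7947 CPM in Tg-SwDI mice. The 12 choroid plexus genes summed, without the transgene, to 67.3 to 4488 CPM in WT and 69.5 to 362 CPM in KO mice, and with it to 130 to 3870.5 CPM in WT and 137 to 4022 CPM in KO mice. Of 7 fibroblast and meningeal genes none passed in either genotype, at summed levels of 102 to 414 CPM over all mice, and of 8 hippocampal neuron genes 1 fell in KO mice, at 3748 to 5081 CPM. Of 8 thalamic genes 1 (12.5%) fell and of 7 striatal genes 2 (28.6%) rose in KO mice, beside 20.8% of all tested genes called. Their sums were 185 to 239 and 87.0 to 129 CPM over all mice. Whether microglial, astrocytic or choroid plexus RNA took part in the changes of the 34 members was not tested beyond the fits with the choroid plexus score and within the Ttr classes.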

How the data were processed

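Total RNA of the left hippocampus was enriched for polyadenylated RNA and made into stranded libraries, per the labels. The authors aligned the reads to mm10 with STAR and counted them per Ensembl gene with featureCounts, and they deposited raw counts, 1 column per mouse. The strand setting and the treatment of multimapping reads are not given in the sources used here. Gene symbols, exon lengths and 3′ UTRs came from GENCODE M21, which matched 99.5% of gene identifiers.

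Counts of all 20 mice were fitted together in edgeR 4.0.16 (R 4.3.3) with TMM scaling, filterByExpr (minimum count 10), 1 mean per group and glmQLFit and glmQLFTest, as in the factorial design of the study. P-values were adjusted by Benjamini-Hochberg over all 16107 genes, with a threshold of 0.05. CPM were scaled by TMM, and log2 CPM used a prior count of 2. The fit was tested on simulated data.

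The 34 members and all lists were chosen with earlier results of these data known. Values in every mouse are given for the 4 precursor genes, Mbp, Mog, Myrf, Sox10, Olig2 and the 12 members with the lowest adjusted p in any comparison. Up to 4 genes of each further list are named by lowest adjusted p; a gene that rule also covers is not reported here. Alternatives were DESeq2, other scaling, filters and covariates, and leaving out each mouse. The 2 fits within Ttr classes were chosen after seeing the data. The count of the miR-34a gene was not analysed here, so the KO and WT labels were not checked against it.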

Additional observations from a re-analysis of the deposited data

Results flagged for a closer look

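The 34 members and the mitochondrial share in each of 4 groups gave 140 sets of 5 mice. In 12 of these sets a single mouse lay far from the other 4 of its group by Dixon's criterion. Chance alone meets that criterion in about 1 of 20 sets, and the same mouse could stand apart in several sets. KO Non-Tg mouse 1 was far below its group for Mbp (2543 CPM against 2835 to 2917) and for Mog (37.4 CPM against 46.8 to 50.2). KO Non-Tg mouse 2 was far above for Olig1 (137 CPM) and Cspg4 (29.0 CPM) and far below for Padi2 (40.0 CPM against 52.2 to 54.4). KO Tg-SwDI mouse 2 was far above for Mog (62.5 CPM against 51.6 to 53.2) and Cspg4 (37.3 CPM against 28.5 to 29.5). KO Tg-SwDI mouse 8 was far above for Sox10 (82.6 CPM against 50.2 to 56.7) and for the mitochondrial share of counts (14.6%), and far below for Pdgfra (47.1 CPM against 60.6 to 65.9). WT Tg-SwDI mouse 3 was far above for Aspa (24.3 CPM against 16.1 to 18.3) and WT Tg-SwDI mouse 5 for Trf (37.3 CPM against 28.2 to 30.5).

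The transgene response differed between miR-34a KO and WT mice for Padi2, by a log2 difference of 0.48, and for B2m, by 1.06, in edgeR's test of the interaction (adjusted p = 0.0476 and 0.0199). The Padi2 value ranged in adjusted p from 0.00634 to 0.486 over the alternatives.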

How the results depend on the processing

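No result reversed its direction in a called value. The number of members that rose with the transgene in KO mice, 18, was 10 with the GC and length trend removed. It was 12 in the 10 KO mice alone and 13 to 21 over the 20 fits without 1 mouse. In WT mice, the 3 called members became 1 with the GC trend removed, 8 in the 10 mice alone (7 higher and Opalin lower), 5 with the replicate block, 0 in the mice with Ttr under 1000 CPM and 1 in those over it, and 1 to 5 without 1 mouse. For KO over WT in Tg-SwDI mice, 1 became 0 with library size alone, the replicate block, the GC trend removed, the 10 mice alone and within either Ttr class, and it was 0 to 1 without 1 mouse. The interaction count of 1 was 3 in DESeq2, 0 with library size alone, the replicate block, the choroid plexus covariate, the GC trend removed and Ttr under 1000 CPM, and 0 to 2 without 1 mouse. The average transgene effect called 17 members, 11 with the GC trend removed, 11 with Ttr under 1000 CPM and 12 to 18 without 1 mouse. The 9 mice of low Ttr hold 1 WT and 1 KO Tg-SwDI mouse, numbers 7 and 2, so that their transgene arms have no spread of their own. In them the median of the mature myelin genes was 0.25 for KO over WT in Tg-SwDI mice, 0.36 for the transgene in KO mice, 0.40 for the interaction and 0.045 for the average KO effect, and that of the precursor genes was 0.14 for KO over WT in Tg-SwDI mice, 0.15 for the transgene in KO mice, 0.17 for the average transgene effect and 0.16 for the average KO effect. With all 20 mice the mature medians were -0.0015, 0.22, 0.16 and -0.06 in the order given. The precursor medians were then 0.0020, 0.01, 0.08 and 0.05. The median average KO effect of the mature genes was thus below 0 with all mice and above 0 in the 9. Seed matches fell from 5 members to 0 when 8mers alone were counted. The cause of these changes was not tested.

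Replicate numbers were not treated as pairs in the main fit. Of 16 same-numbered pairs, 2 correlated above 0.1 in their deviations from the group means (-0.40 to 0.15). The median was -0.04, beside 0.01 for differently numbered mice. These correlations cannot show whether the numbers mark a shared origin or handling. With the replicate block 19 members rose in KO mice. Depth limits Klk6 most, with as few as 24 counts in a library.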
